A study of Mus musculus with 9 samples.

Results

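Genes that mark hepatic stellate cells, 10 in all, were followed in the livers of mice with diet-induced NASH, with and without treadmill training. The 10 genes were taken by symbol, as markers of quiescent or activated stellate cells other than collagens, from the 17846 genes measured. They are Acta2, Tagln, Des, Pdgfra, Pdgfrb, Lrat, Reln, Rgs5, Dcn and Lum. Whole liver RNA was sequenced from 9 male mice labelled as strain C57/BL and genotype WT, with 1 library per mouse and 3 mice per group. Control mice (treatment label Con) ate normal chow and stayed sedentary. NASH mice (Ath diet) ate the atherosclerotic diet, which contains added cholesterol and cholate, for 12 weeks. A sedentary period on the diet followed from 20 weeks of age, which brought the total to 20 weeks. NASH+Exercise mice (EXE+Ath diet) ate the same diet for 12 weeks and then ran on a treadmill for 8 weeks, starting at 20 weeks of age. Whether the diet went on during those 8 weeks is not given in the sources used here, so training and the length of the diet cannot be told apart. The model is a diet in wild-type mice with no transgene, and the mice sequenced are a subset of larger cohorts.

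Hepatic stellate cells lie in the space between sinusoidal endothelium and hepatocytes, where in their quiescent state they store retinyl esters in lipid droplets. In a damaged liver they can become activated, lose their retinoid store, respond to platelet-derived growth factor, take on contractile filaments of the smooth muscle kind and lay down matrix. Several genes used to mark them are shared with other cells: smooth muscle actin and transgelin are abundant in vascular smooth muscle, Rgs5 in pericytes, and Pdgfra, Dcn and Lum in fibroblasts of the portal tract.

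In NASH livers Lum, Pdgfrb, Pdgfra and Tagln were higher than in Control livers, by 4.52-fold, 2.96-fold, 2.2-fold and 2.02-fold. Acta2, the filament gene most often used to score activation, did not pass the test, nor did the retinoid enzyme Lrat, Reln, Rgs5 or Dcn. After training none of the 10 genes passed the test against NASH, and against Control only Lum remained called, at 2.76-fold. Called genes are those with both an adjusted p under 0.05 and a log2 difference of more than 1 in either direction (edgeR's quasi-likelihood test on all 9 mice, Benjamini-Hochberg over the 13619 genes tested). In whole liver, more stellate cells and more RNA of a gene per stellate cell cannot be told apart.

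The libraries held between 20086004 and 22495449 estimated counts, and all 10 genes passed the filter on low counts. Values are normalized counts, that is CPM (counts scaled to a common library size) after TMM scaling, unless TPM, which is also scaled by transcript length, is named. Mice are named by group and label number. Within Control, mouse 29 had the highest TPM of 9 of the 10 genes and mouse 4 the lowest of 9. Within NASH, mouse 19 was highest for 6 genes, Acta2, Pdgfra, Pdgfrb, Rgs5, Dcn and Lum. Mouse 19 also had the highest summed TPM of the cholangiocyte markers, 54.0 against 26.4 and 14.8 in NASH mice 5 and 20. Within NASH+Exercise, mouse 8 was highest for 8 genes, and mouse 22 for Acta2 and Tagln. Values with single mice left out are given beside the results they change.

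**Figure D1:**
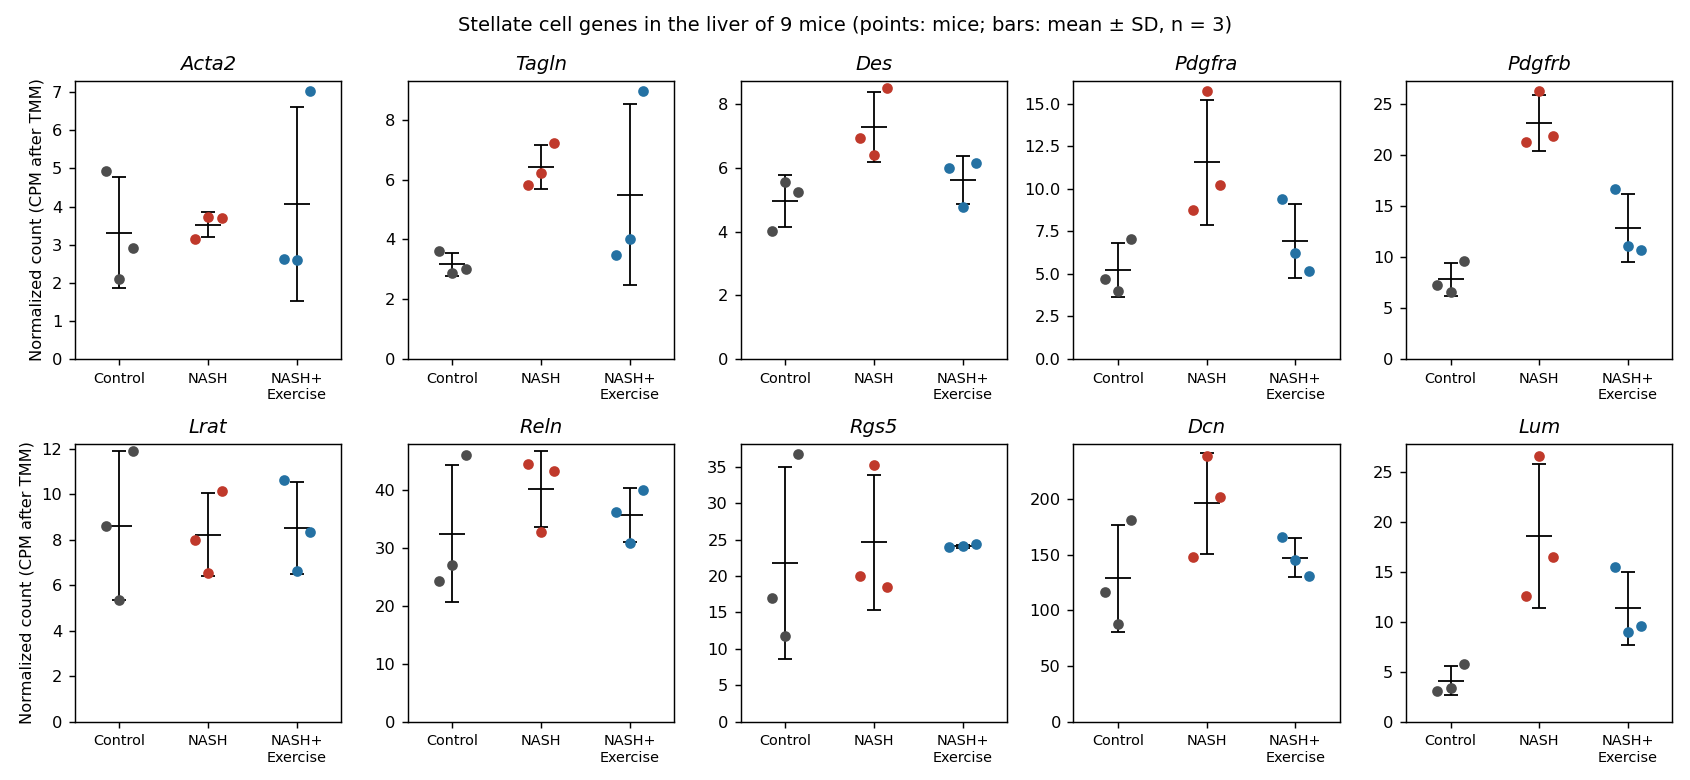
Normalized counts (CPM after TMM, linear axes from 0) of the 10 stellate cell genes in each mouse of Control, NASH and NASH+Exercise. Points are mice and bars the mean ± SD of 3 mice. Pdgfrb and Lum in NASH lie wholly above Control, at 21.2 to 26.2 against 6.56 to 9.59 for Pdgfrb and 12.6 to 26.6 against 3.11 to 5.77 for Lum, while Acta2, Lrat and Rgs5 overlap across the groups.

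Among the contractile and filament genes, Tagln was called in NASH and Acta2 was not, and the difference between these 2 changes was not tested. Acta2 (Entrez 11475, GRCm38.p6 chr19:34240336-34255585) encodes smooth muscle alpha actin. Its normalized count was 4.94, 2.11 and 2.91 in Control mice 3, 4 and 29, then 3.16, 3.73 and 3.70 in NASH mice 5, 19 and 20, and 2.62, 2.60 and 7.02 in trained mice 8, 18 and 22 (NASH+Exercise). The 3 groups overlapped, with the highest value in trained mouse 22 and the next in Control mouse 3. Their means were 3.32 ± 1.46, 3.53 ± 0.319 and 4.08 ± 2.55 (SD, n = 3 each). The log2 difference of NASH from Control was 0.09 ± 0.42 (SE, edgeR adjusted p = 0.895) and that of NASH+Exercise from NASH was 0.20 ± 0.41 (adjusted p = 0.862). With single mice left out the former ranged from -0.17 to 0.48. At between 38 and 144 estimated counts per mouse and with this spread, a moderate difference in Acta2 in either direction was not detectable. Without trained mouse 22 the log2 difference of NASH+Exercise from NASH was -0.43 (adjusted p = 0.787).

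Tagln (Entrez 21345, chr9:45929628-45936058) encodes transgelin, an actin-binding protein of smooth muscle and activated stellate cells. Normalized counts of Tagln were 3.6, 2.89 and 3.01 in the Control mice, 5.82, 6.21 and 7.23 in the NASH mice, and 3.49, 4.01 and 8.97 in the trained mice. Every NASH mouse exceeded every Control mouse, while the trained mice ranged from the Control level to above all NASH mice. Tagln rose in NASH from 3.17 ± 0.377 to 6.42 ± 0.726 (SD, n = 3 each), a log2 difference of 1.02 ± 0.33 (SE, edgeR adjusted p = 0.0328). That call was lost when any 1 of the Control or NASH mice was left out, with log2 differences of 0.92 to 1.11 and adjusted p of 0.0555 to 0.0939. With training the log2 difference from NASH was -0.23 ± 0.31 (adjusted p = 0.78). It was -0.77 without mouse 22 (adjusted p = 0.335) and 0.02 without mouse 8 (adjusted p = 0.982). Against Control, trained Tagln was at a log2 difference of 0.79 (edgeR adjusted p = 0.108) and was not called. Without trained mouse 8 that difference was 1.03 (adjusted p = 0.0463), which was called, and without trained mouse 22 it was 0.24 (adjusted p = 0.478). Tagln lies over 2480 bases of the neighbouring gene Pcsk7, and whether reads were counted by strand is not given in the sources used here. Pcsk7 itself was at a log2 difference of -0.28 between NASH and Control (adjusted p = 0.0874).

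Des (Entrez 13346, chr1:75360292-75368579) encodes desmin, the intermediate filament protein by which rodent stellate cells are often stained. The Control mice had normalized counts of 4.03, 5.56 and 5.26, the NASH mice 6.94, 6.40 and 8.50, and the trained mice 5.98, 4.77 and 6.14. The NASH mice lay above all mice of the other groups. The log2 difference of NASH from Control was 0.56 ± 0.19 (SE), with an edgeR adjusted p of 0.0458 but a size below the fold threshold, so Des was not called. With single mice left out the adjusted p was 0.0487 to 0.17. After training its mean was 5.63 ± 0.751 against 7.28 ± 1.09 in NASH (SD, n = 3 each), a log2 difference of -0.37 ± 0.19 (adjusted p = 0.387).

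The receptors for platelet-derived growth factor, a mitogen for activated stellate cells, were both higher in NASH. Pdgfrb (Entrez 18596, chr18:61045127-61085067) encodes the beta receptor, and its normalized count was 7.25, 6.56 and 9.59 in the Control mice, 21.2, 26.2 and 21.8 in the NASH mice, and 16.6, 11.1 and 10.7 in the trained mice. No values overlapped between any pair of groups, with the trained mice between the others. Pdgfrb rose in NASH from 7.80 ± 1.59 to 23.1 ± 2.72 (SD, n = 3 each), a log2 difference of 1.56 ± 0.21 (SE, edgeR adjusted p = 0.000231). In trained mice it averaged 12.8 ± 3.31, which was -0.85 ± 0.20 from NASH on the log2 scale. The unadjusted p of that difference was 0.00144 and its adjusted p 0.127, so it did not pass. DESeq2 gave it a log2 difference of -0.80 and an adjusted p of 0.00726, below the fold threshold. Against Control, trained Pdgfrb was 0.72 ± 0.21 higher on the log2 scale (adjusted p = 0.0269), below the fold threshold. That adjusted p lost its side of 0.05 without Control mouse 3 (0.0906), Control mouse 4 (0.0682) or trained mouse 8 (0.109).

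Pdgfra (Entrez 18595, chr5:75151322-75198206) encodes the alpha receptor. Normalized counts of Pdgfra were 4.67, 4.0 and 7.04 in the Control mice, 8.73, 15.7 and 10.2 in the NASH mice, and 9.38, 6.23 and 5.17 in the trained mice. NASH did not overlap Control, and the trained mice overlapped both groups. Pdgfra rose in NASH from 5.24 ± 1.60 to 11.5 ± 3.68 (SD, n = 3 each), a log2 difference of 1.14 ± 0.30 (SE, edgeR adjusted p = 0.0148). The call was lost without Control mouse 3 (adjusted p = 0.0559), without Control mouse 4 (0.0537) and without NASH mouse 19, where the log2 difference was 0.82 (0.0646). With training the log2 difference from NASH was -0.74 ± 0.30 (unadjusted p = 0.032, adjusted p = 0.277).

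Neither marker of the quiescent state passed the test in any comparison. Lrat (Entrez 79235, chr3:82892582-82903974) encodes lecithin retinol acyltransferase, the enzyme that makes retinyl esters for storage. Its normalized count was 8.59, 5.34 and 11.9 in the Control mice, 7.98, 6.52 and 10.2 in the NASH mice, and 10.6, 6.61 and 8.34 in the trained mice. The groups overlapped, with means of 8.60 ± 3.28, 8.22 ± 1.83 and 8.52 ± 2.0 (SD, n = 3 each). The log2 difference of NASH from Control was -0.07 ± 0.29 (SE, edgeR adjusted p = 0.879), that of training was 0.05 ± 0.29 (adjusted p = 0.95), and that of NASH+Exercise from Control was -0.02 ± 0.29 (adjusted p = 0.978). The sign of these differences turned with the scaling, to 0.24, -0.13 and 0.11 with library size alone, so no direction is given for Lrat. The gene lies over 11393 bases within the span of the noncoding RNA Rbm46os, which is not among the genes measured here.

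Reln (Entrez 19699, chr5:21884454-22344705) encodes reelin, a secreted glycoprotein that stellate cells make in the liver. The Control mice had normalized counts of 24.2, 27.0 and 46.0, the NASH mice 44.5, 32.6 and 43.2, and the trained mice 36.2, 30.8 and 40.0. Control mouse 29 had the highest value of all 9 mice, so the groups overlapped. The log2 difference of NASH from Control was 0.31 ± 0.23 (SE, edgeR adjusted p = 0.338), and that of training was -0.17 ± 0.23 (adjusted p = 0.779). Without Control mouse 29 the former was 0.61 (adjusted p = 0.0244), below the fold threshold.

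Rgs5 (Entrez 19737, chr1:169655501-169695813) encodes a regulator of G protein signalling typical of pericytes. Its normalized count was 17.0, 11.7 and 36.7 in the Control mice, 20.0, 35.2 and 18.5 in the NASH mice, and 23.9, 24.1 and 24.3 in the trained mice. One mouse stood above the other two in Control and in NASH, whereas the trained mice differed by little, at 24.1 ± 0.204 (SD, n = 3). The log2 differences were 0.17 ± 0.39 for NASH against Control (SE, edgeR adjusted p = 0.77) and -0.03 ± 0.38 for training (adjusted p = 0.979). The former was 0.74 without Control mouse 29 (adjusted p = 0.0612), -0.14 without Control mouse 4 and -0.21 without NASH mouse 19 (0.741).

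Dcn and Lum encode decorin and lumican, small leucine-rich proteoglycans that bind collagen fibrils, and they neighbour each other on chromosome 10. Dcn (Entrez 13179, chr10:97479500-97518163) was at a normalized count of 117, 88.0 and 181 in the Control mice, 148, 239 and 202 in the NASH mice, and 166, 145 and 131 in the trained mice. Control mouse 29 lay above NASH mouse 5, so NASH and Control overlapped. The log2 difference of NASH from Control was 0.61 ± 0.26 (SE, edgeR adjusted p = 0.0901), and without Control mouse 29 it was 0.90 (adjusted p = 0.0088), still below the fold threshold. With training the log2 difference from NASH was -0.41 ± 0.26 (adjusted p = 0.471).

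Lum (Entrez 17022, chr10:97565501-97572703) differed most of the 10 genes between NASH and Control. Normalized counts of Lum were 3.11, 3.39 and 5.77 in the Control mice, 12.6, 26.6 and 16.4 in the NASH mice, and 15.5, 8.92 and 9.55 in the trained mice. Every mouse given the Ath diet, trained or not, lay above every Control mouse, and the trained mice overlapped the NASH mice. Lum rose in NASH from 4.09 ± 1.46 to 18.5 ± 7.22 (SD, n = 3 each), a log2 difference of 2.18 ± 0.35 (SE, edgeR adjusted p = 0.00105). In NASH+Exercise Lum was also higher than in Control, at 11.3 ± 3.63, a log2 difference of 1.47 ± 0.35 (adjusted p = 0.0125), a call lost without Control mouse 3 (adjusted p = 0.0541). The log2 difference of trained from NASH mice was -0.71 ± 0.33 (adjusted p = 0.337), and without NASH mouse 19 it was -0.34.

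**Figure D2:**
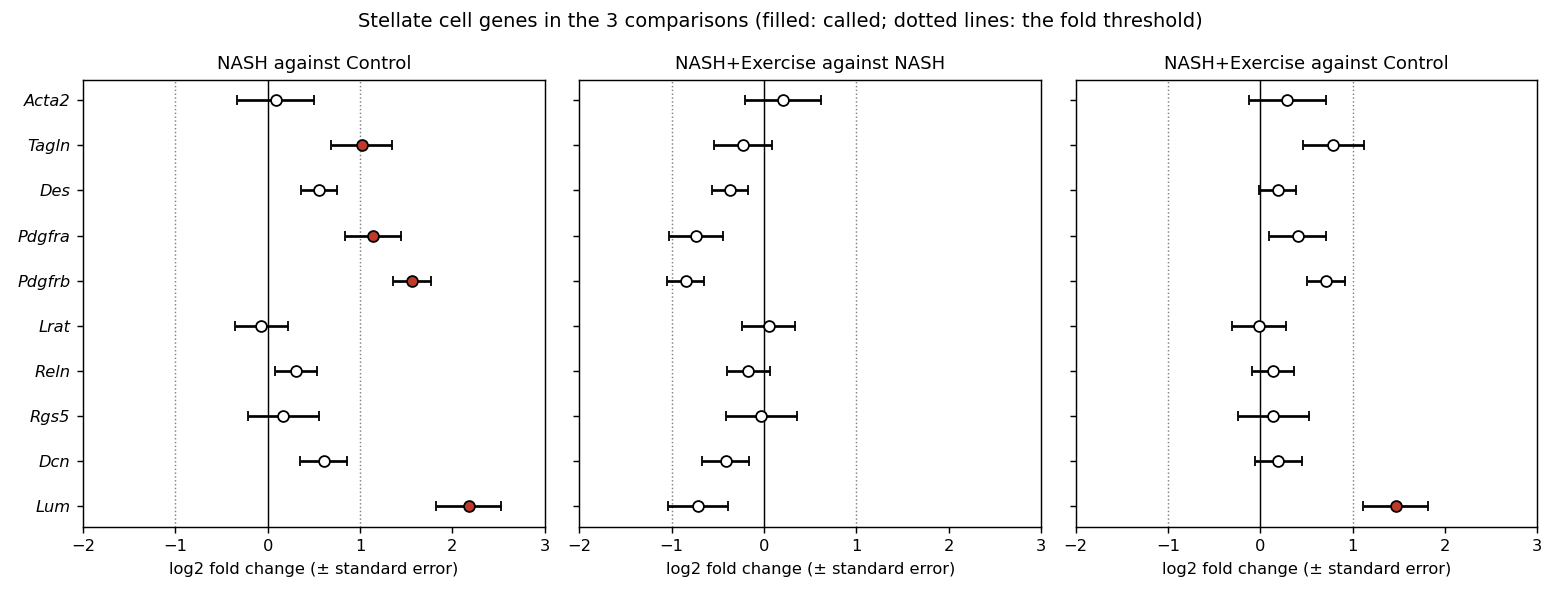
Log2 fold change (points) with its standard error (bars) of the 10 stellate cell genes in each of the 3 comparisons, from edgeR on all 9 mice. Filled points were called and dotted lines mark the fold threshold of 1 on the log2 scale. Lum, Pdgfrb, Pdgfra and Tagln are filled at 2.18, 1.56, 1.14 and 1.02 for NASH against Control, no point is filled for NASH+Exercise against NASH, and Lum alone is filled at 1.47 for NASH+Exercise against Control.

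Over the list, 4 of the 10 stellate cell genes were called higher in NASH than in Control and 0 lower, beside 18.3% of all genes tested called in either direction, 15.3% called higher and 3.03% called lower. At an adjusted p alone 5 of the 10 passed, Des being the fifth, beside 35.6% of all genes. The groups did not overlap, with NASH higher, for 5 of the 10, beside 27.4% of all genes. Their median log2 difference was 0.58, beside 0.01 over all genes. With Control mouse 3, Control mouse 4 or NASH mouse 19 left out, the called genes were Lum and Pdgfrb. Without Control mouse 29, NASH mouse 5 or NASH mouse 20 the called genes were Lum, Pdgfra and Pdgfrb. With Control mouse 29 and NASH mouse 19 both left out, an alternative chosen after the values were seen, they were Lum, Pdgfra and Pdgfrb.

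For NASH+Exercise against NASH, 0 of the 10 genes were called, by edgeR and by DESeq2, and edgeR called 0.14% of all genes. At an unadjusted p under 0.05 there were 2, Pdgfra and Pdgfrb, beside 15.3% of all genes. Of the 10 log2 differences 8 were below 0, beside 54.9% of all genes, and their median was -0.30, beside -0.03 over all genes. Only Acta2 and Lrat were above 0. Both turned below 0 when libraries were scaled by their size alone, to -0.04 and -0.13. Under that scaling the median of all genes was -0.23, so both stayed above that median. Trained mice lay wholly below NASH mice for Des and Pdgfrb, 2 of the 10 genes, beside 14.9% of all genes. For NASH+Exercise against Control, Lum was the 1 gene called of 10, beside 13.5% of all genes. Lum and Pdgfrb had an adjusted p under 0.05, 2 of the 10, beside 25.1% of all genes, and the groups did not overlap for the same pair, with NASH+Exercise higher, beside 21.5% of all genes. The comparisons share their NASH or Control mice and are not independent of each other.

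Compared per length, Dcn was by far the most abundant of the 10 genes, at 106 ± 52.8 TPM in Control mice, 212 ± 61.4 in NASH mice and 130 ± 30.4 in trained mice (SD, n = 3 each). In Control the next level was that of Rgs5, at 8.28 ± 5.94 TPM, and the lowest that of Pdgfra, at 1.19 ± 0.527. Apart from Dcn, neighbours in the Control order overlapped between mice. In NASH Lum came next after Dcn, at 18.1 ± 8.32 TPM against 3.0 ± 1.45 in Control, although it overlapped the next gene, Rgs5, at 12.1 ± 5.50. Pdgfrb was at 8.52 ± 1.60 TPM and Tagln at 8.10 ± 0.779 in NASH, both without overlap with the values of Control. Acta2, at 2.95 ± 0.150 TPM, had the lowest mean of the 10 in NASH and overlapped Lrat, at 3.0 ± 0.494. In NASH+Exercise Rgs5 again came next after Dcn, at 9.47 ± 1.0 TPM, overlapping Lum at 9.06 ± 3.94.

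Ratios of 2 genes within 1 mouse cancel what scales both genes alike, and these pairs were chosen after the values were seen, so they are given without a test. The TPM ratio of Lum to Dcn was 0.0238, 0.0347 and 0.0286 in the Control mice, 0.0764, 0.0995 and 0.0731 in the NASH mice, and 0.0838, 0.0550 and 0.0656 in the trained mice. All mice given the Ath diet lay above all Control mice, so Lum was higher relative to its neighbour Dcn as well in TPM, and the same held for the ratio of normalized counts. The ratio of Tagln to Acta2 was 1.19, 1.83 and 1.12 in the Control mice, 2.55, 2.71 and 2.97 in the NASH mice, and 2.18, 2.41 and 1.91 in the trained mice. No pair of groups overlapped in this TPM ratio, including trained mouse 22, whose Acta2 and Tagln were both high. In normalized counts the ratio was 0.728 to 1.37 in the Control mice, 1.67 to 1.95 in the NASH mice and 1.28 to 1.54 in the trained mice, so that trained and Control mice overlapped. Among the 5 ratios this was the only overlap that differed between the scales. The ratio of Pdgfrb to Pdgfra averaged 1.86 in Control, 2.55 in NASH and 2.29 in trained mice, and both diet groups lay above Control. The ratio of Pdgfrb to Lrat was 0.797 to 1.21 in the Control mice, 2.14 to 4.0 in the NASH mice and 1.27 to 1.67 in the trained mice, without overlap between groups. In contrast, the ratio of Acta2 to Lrat overlapped across all groups, averaging 0.998, 1.0 and 1.11.

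**Figure D3:**
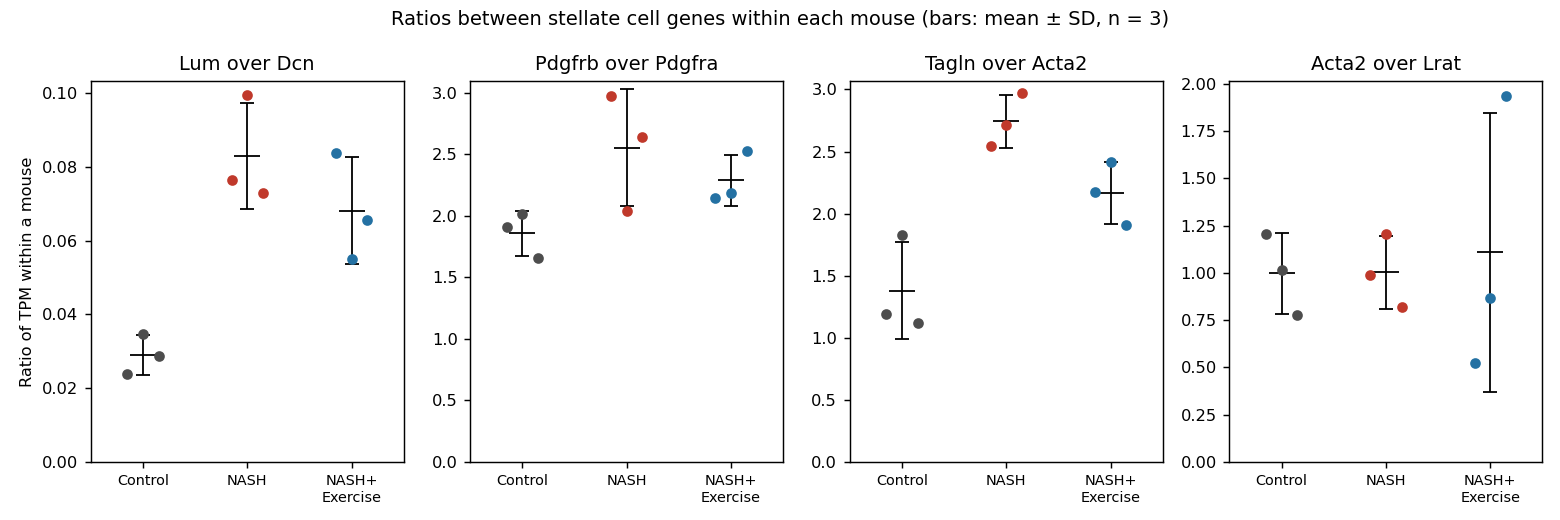
Ratio of TPM of 2 stellate cell genes within each mouse (linear axes from 0), for Lum over Dcn, Pdgfrb over Pdgfra, Tagln over Acta2 and Acta2 over Lrat. Points are mice and bars the mean ± SD of 3 mice. Lum over Dcn averages 0.0290, 0.0830 and 0.0681 in Control, NASH and NASH+Exercise, and Tagln over Acta2 averages 1.38, 2.74 and 2.17, while Acta2 over Lrat overlaps in all groups.

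Related genes were counted by the same rule, over lists drawn up by function. Of 18 tested genes of contraction and activation other than the 10, 10 were called higher in NASH and 1 lower, beside 15.3% and 3.03% of all genes, with a median log2 difference of 1.15. Timp1, an inhibitor of matrix-degrading proteases, was listed at 0.28, 0 and 0.11 TPM in the Control mice and at 9.07, 16.2 and 15.3 TPM in the NASH mice. Ltbp2, which binds elastic fibres, rose by 3.37 on the log2 scale (edgeR adjusted p = 0.000174). Lox, which crosslinks collagen and elastin, rose by 3.15 (adjusted p = 0.000227), and S100a6, a calcium-binding protein, by 2.74 (2.42e-05). Myh11, the myosin heavy chain of smooth muscle, fell by 1.43 on the log2 scale (0.0141), and was named after its values were seen. Normalized counts of Myh11 were 4.99, 1.56 and 2.96 in the Control mice and 1.08, 1.24 and 1.19 in the NASH mice, without overlap, whereas its TPM values, 0.36 to 1.41 and 0.36 to 0.58, overlapped. Of 22 other genes of quiescent stellate cells, 3 were called higher and 0 lower, near the 15.3% of all genes, with a median of 0.26. Among these were Adamtsl2, a matrix protein, at 1.89 on the log2 scale (adjusted p = 0.000151), and Cygb, the globin of stellate cells, at 1.24 (4.63e-05). Gfap, a filament gene also used to mark quiescent stellate cells, was between 0.12 and 0.54 TPM in all 9 mice.

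Of the ligands for the receptors described above, 3 of 4 were called higher in NASH, namely Pdgfb at 1.95 on the log2 scale (edgeR adjusted p = 0.000905), Pdgfd at 1.81 (0.029) and Pdgfc at 1.11 (0.0367). The count of ligands called was between 1 and 4 when single mice were left out. Among 6 regulators of the actin-responsive factors MRTF and SRF, 2 were called higher, Fhl2, at 0.11 to 0.26 TPM in Control mice and 1.72 to 2.98 TPM in NASH mice, and the actin crosslinker Flna, which rose by 2.0 on the log2 scale (7.31e-06). Of 10 other small leucine-rich proteoglycans, 2 were called higher, Fmod at 1.78 (0.00493) and Bgn at 1.04 (0.000257), near the background of 15.3%, and their median was 0.28. Of 22 genes of retinoid handling, 6 were called higher and 4 lower, beside 15.3% and 3.03% of all genes. Aldh1a2, which makes retinoic acid, was at 0.07, 0.16 and 0.04 TPM in the Control mice and 0.5, 1.55 and 0.57 TPM in the NASH mice, at few counts per Control mouse. Retsat, a retinol saturase, fell by 2.51 on the log2 scale (0.000137), Cyp26a1, which breaks down retinoic acid, fell by 2.06 (0.0186), and Dhrs9, a retinol dehydrogenase, rose by 2.53 (0.00123). Of 8 genes of reelin signalling, 3 were called higher, the kinases Fyn at 1.45 (0.000306) and Src at 1.02 (0.005) and the reelin receptor Lrp8, at 0.01 to 0.04 TPM in the Control mice and 0.12 to 0.25 TPM in the NASH mice (0.0096). Of 11 other Rgs genes, 6 were called higher and 0 lower, among them Rgs2 at 3.35 (5.47e-05), Rgs19 at 2.64 (5.56e-05) and Rgs10 at 2.63 (4.9e-05). Rgs14 was also called, at 0.07, 0.03 and 0.4 TPM in the Control mice and 1.03, 1.38 and 1.57 TPM in the NASH mice.

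With training, edgeR called 0 genes in each of these 8 lists against NASH. At an unadjusted p under 0.05, 8 of the 22 quiescent genes and 8 of the 18 genes of contraction and activation were lower and 0 higher, beside 15.3% of all genes in either direction. Of the retinoid handling genes 4 of 22 were lower and 1 was higher. Among other small leucine-rich proteoglycans 3 of 10 were lower, and among reelin signalling genes 3 of 8. For MRTF and SRF regulators this was 2 of 6, for other Rgs genes 2 of 11 and for PDGF ligands 1 of 4. The medians of the quiescent list and of the contraction and activation list were -0.30 and -0.46 on the log2 scale. That of the PDGF ligands was -0.64 and that of retinoid handling -0.06. DESeq2, which tested 22 genes of the contraction and activation list, called 3 of them, and it called 1 of the other small leucine-rich proteoglycans and 0 in the other 6 lists. Against Control, 6 genes of contraction and activation remained called in trained mice, with Timp1, Lox and S100a6 among them, together with Pdgfb, Fhl2, Flna and 5 Rgs genes.

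**Figure D4:**
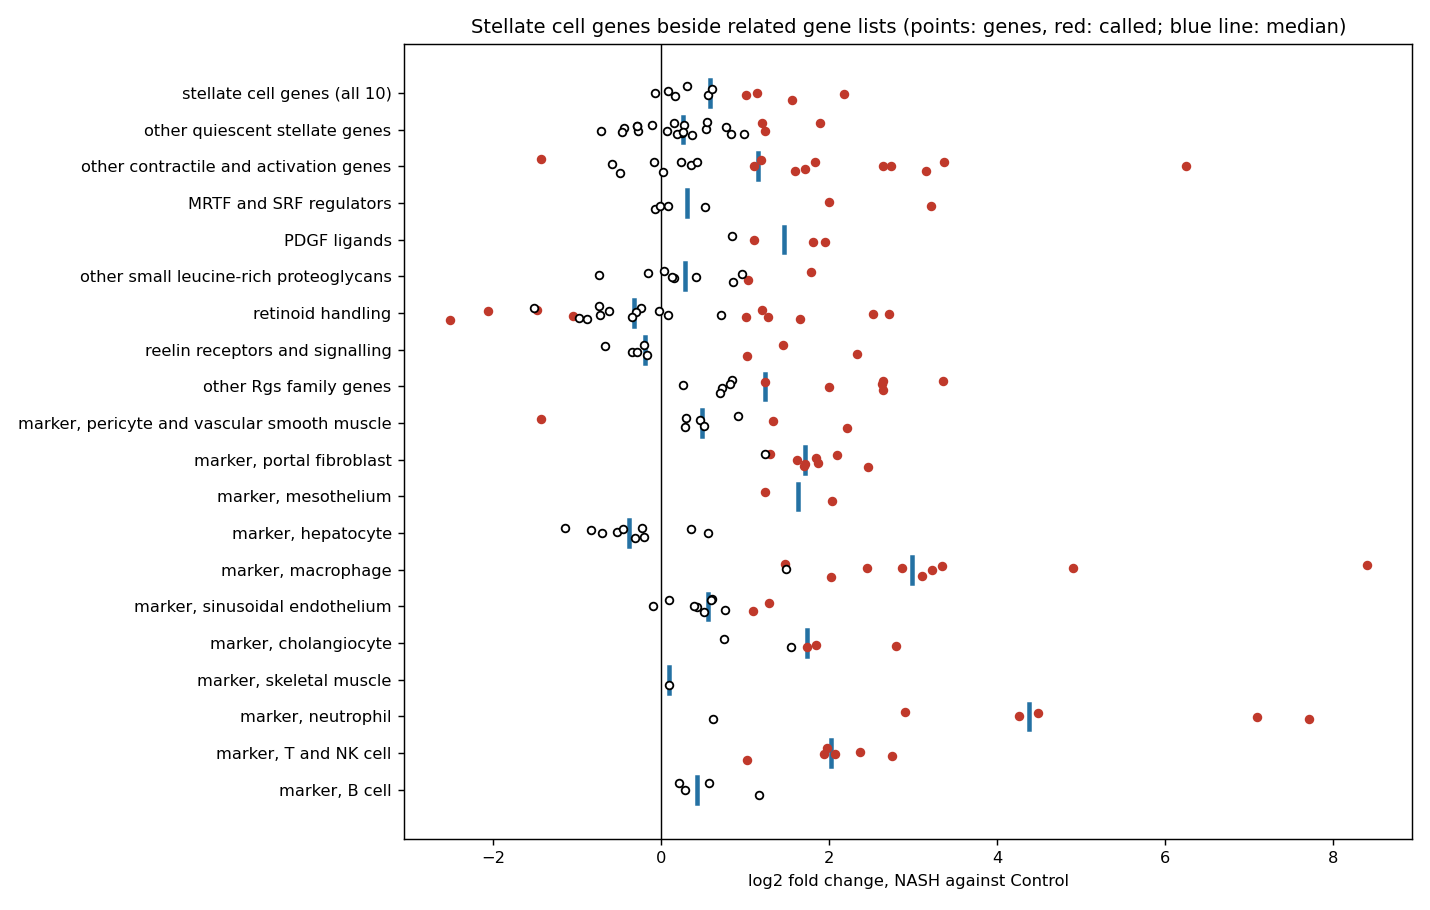
Log2 fold change of NASH against Control for each tested gene of the 10 stellate cell genes, of the related lists and of the marker lists of other liver cells. Points are genes, filled red where called, and the blue line is the median of the list. The stellate cell genes have a median of 0.58 and 4 called genes, the portal fibroblast markers a median of 1.71 and the hepatocyte markers a median of -0.38. The rightmost point of the contraction and activation list is Timp1, whose fitted value rests on 0 to 3 counts per Control mouse.

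Markers of other cells that express some of the 10 genes moved in the same comparison. Of the 12 portal fibroblast markers 9 were tested and 8 called higher in NASH. The summed TPM of all 12 was 9.56 to 12.2 in the Control mice, 39.4 to 67.8 in the NASH mice and 17.2 to 26.6 in the trained mice. Elastin (Eln) was at 0.86 to 1.93 TPM in the Control mice, 4.92 to 11.5 in the NASH mice and 1.48 to 2.87 in the trained mice. With training edgeR called none of the 9, all 9 were below 0 and 7 had an unadjusted p under 0.05. DESeq2 called 1 of the 12 portal fibroblast markers with training, and 1 of the 15 markers of pericytes and vascular smooth muscle. Of the 15 markers of pericytes and vascular smooth muscle 8 were tested, with 2 called higher and 1 lower in NASH. The summed TPM of all 15 was 9.38 to 19.9 in the Control mice, 24.9 to 28.1 in the NASH mice and 15.8 to 20.0 in the trained mice. The 2 tested mesothelial markers of 7 listed were both called, and 0 were called without NASH mouse 20. The summed TPM of all 7 was 0.44 to 1.93 in Control and 2.47 to 5.21 in NASH. Cholangiocyte markers were called in 3 of 5 tested, and in 1 without Control mouse 3, Control mouse 29 or NASH mouse 19. The summed TPM of all 6 listed was 7.27 to 10.3 in Control and 14.8 to 54.0 in NASH. Macrophage markers were called in 9 of 10, neutrophil markers in 5 of 6, T and NK cell markers in 6 of 6, sinusoidal endothelial markers in 2 of 10 (0 without Control mouse 3), and B cell markers, hepatocyte markers and the 1 tested marker of skeletal muscle in 0, beside 18.3% of all genes called in either direction. On the TPM scale of these sums, the median log2 difference of all genes was 0.45 for NASH against Control and -0.33 for training (limma on log2(TPM + 0.1)). The part of these cells in the levels of Lum, Pdgfrb, Pdgfra and Tagln was not tested.

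The genes whose pattern over the 9 mice was closest to each of the 10 were found by the root mean square difference in log2 CPM after removing each gene's mean. For Pdgfrb they were Lyl1, a haematopoietic and endothelial transcription factor, at 0.0977, and Ampd3 at 0.115. For Pdgfra they were Vtcn1 at 0.0624 and Tceal8 at 0.153, and for Lum Anxa3 at 0.139 and Pkib at 0.151. Des lay closest to Sema4b at 0.104, Dcn to Cuedc1 at 0.114, Lrat to Pkd1l3 at 0.136 and Rgs5 to Mid2 at 0.198. Reln lay closest to Zfp607a and Flt4, a receptor of lymphatic and sinusoidal endothelium, both at 0.128. The nearest genes of Tagln, Tcim at 0.212, and of Acta2, Ces2b at 0.276, lay further away. These are descriptions of 9 points each, and none of the genes closest to the 10 was itself among the 10.

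Start-site sequence was at hand for 6 of the 10 genes, as RefSeq entries on GRCm38.p6, and the 250 bases before the listed start were read. For Acta2, 217 of these bases fall in annotated exons, so its window is not counted. The Pdgfra window, chr5:75152001-75152250, holds no annotated exon but lies within the span given for the gene above. The windows of Des, the filament marker for which NASH and Control mice did not overlap, and Lrat, the retinoid marker for which they did, are shown because both are classical stellate markers with a window free of annotated exons. Capitals mark the MCAT element CATTCC, searched on both strands, and all other bases are in lower case, 5′ to 3′ on the strand of the gene.
Des, chr1:75360042-75360291, plus strand: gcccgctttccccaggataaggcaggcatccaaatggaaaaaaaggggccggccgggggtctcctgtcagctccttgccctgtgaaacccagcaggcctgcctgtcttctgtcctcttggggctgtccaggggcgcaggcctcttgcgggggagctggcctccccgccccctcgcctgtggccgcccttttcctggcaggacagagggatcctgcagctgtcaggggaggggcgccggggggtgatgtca
Lrat, chr3:82903975-82904224, minus strand: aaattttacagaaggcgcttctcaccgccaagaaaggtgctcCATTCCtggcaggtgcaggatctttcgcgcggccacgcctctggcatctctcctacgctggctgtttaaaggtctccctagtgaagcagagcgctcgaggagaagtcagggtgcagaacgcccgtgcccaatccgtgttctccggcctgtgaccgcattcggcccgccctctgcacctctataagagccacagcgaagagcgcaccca
The MCAT element, a motif bound by TEAD factors, had 1 match among the 5 remaining windows, in Lrat at 208 bases before the start. It matched in 12.6% of 32851 promoters of the same length, which were not screened for exons. The CArG box, the motif bound by SRF, had no match in the 5 windows, beside 1.47% of all promoters. CpG dinucleotides numbered 10 in the window of Des, 18 in Lrat, 37 in Reln, 4 in Pdgfra and 4 in Rgs5, beside a median of 6 over all promoters.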

How the data were processed

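Liver mRNA libraries of 9 mice were used, 1 per mouse, 3 per group. Per gene and mouse the authors deposited estimated counts, which are not normalized, together with FPKM and TPM values. The submitters' processing notes name HISAT2 2.1.0, Bowtie2 2.2.5, RSEM 1.2.8 and GRCm38.p6. Symbols came from a RefSeq table of GRCm38.p6, which held 17728 of the 17846 identifiers. Estimated counts were rounded (33.5 to 35.8% of the non-zero values were not whole). The depth was 20086004 to 22495449 counts per mouse.

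Genes were filtered with filterByExpr by group (minimum count 10, total 15), scaled by TMM and fitted with edgeR 4.0.16 in R 4.3.3 (robust quasi-likelihood, all 9 mice, group as the only term, 6 residual degrees of freedom). Replicate numbers are shared by no groups. Alternatives were RLE size factors, library size alone, no filter, the 6 mice compared, DESeq2 1.42.0 (the tool of the study's methods), limma 3.58.1 on log2(TPM + 0.1), TPM recomputed from the deposited FPKM for the levels, an adjusted p alone and each mouse left out. DESeq2 was fitted to the 6 mice of each comparison without filterByExpr. Its results therefore differ from those of edgeR in the mice and genes used as well as in the tool. On counts simulated for NASH against Control, edgeR called 88.8% of 200 genes changed by 1.5 on the log2 scale, and 3.27% of its calls were false. The changed genes left out those of lowest mean CPM and went up or down at random. In the data 2082 genes were called higher and 412 lower, so these rates may not hold there. Recovery of smaller changes, or in the training comparison, was not measured.

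The 10 genes and all lists were chosen with earlier results of these data known. From each list at most 4 genes are named, those called in NASH against Control with the largest change. Counts of reads carry no molecular identifiers. The edgeR standard errors include the spread between mice as well as counting error. Pcsk7, Gfap, Eln and Myh11 fall outside this rule and were named after their values were seen. Some results are not reported here.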

Additional observations from a re-analysis of the deposited data

How the results depend on the processing

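No paired analysis was possible because the groups share no replicate number. Between NASH and Control, Lum and Pdgfrb were called under 13 of 13 alternatives (log2 1.79 to 2.56 and 1.43 to 1.97), Pdgfra under 10 and Tagln under 3, namely library size alone, the 6 mice alone and limma on TPM. Over all genes, the calls of this comparison were 2494, or 4846 at an adjusted p alone. Of the 10 genes, 2 to 3 were called when single mice were left out, 3 with RLE, without the filter or by DESeq2, and 5 by limma on TPM, which added Dcn at 1.08. For training against NASH, 19 genes were called over all genes, 204 by DESeq2 and 0 to 34 with single mice left out, and 0 of the 10 genes under every alternative run. For NASH+Exercise against Control, 1836 genes were called, or 3423 at an adjusted p alone, and of the 10 genes 1, with 2 at an adjusted p alone and 0 to 2 with single mice left out.

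Signs turned only for genes that did not pass the test in either fit. With single mice left out, the log2 difference of NASH from Control ranged from -0.17 to 0.48 for Acta2, -0.34 to 0.20 for Lrat and -0.21 to 0.74 for Rgs5. That of training ranged from -0.43 to 0.45 for Acta2, -0.77 to 0.02 for Tagln, -0.13 to 0.23 for Lrat and -0.20 to 0.34 for Rgs5. That of NASH+Exercise from Control ranged from -0.35 to 0.69 for Acta2, -0.25 to 0.27 for Lrat, -0.03 to 0.46 for Reln and -0.14 to 0.73 for Rgs5. With library size alone Lrat was at 0.24, -0.13 and 0.11 in the 3 comparisons and Acta2 at -0.04 for training. With limma on TPM Lrat was at 0.40, -0.24 and 0.15 and Acta2 at -0.29 for training. For training Rgs5 was at 0.00021 with the 6 mice alone and 0.02 by DESeq2, and Lrat of NASH+Exercise from Control was at 0.02 with the 6 mice alone. With Control mouse 29 and NASH mouse 19 both left out, an alternative chosen after seeing the data, Acta2 was at -0.07 and Lrat at 0.35 for NASH against Control, Lrat at -0.07 and Rgs5 at 0.34 for training, and Lrat at 0.28 for NASH+Exercise against Control. The cause was not tested.

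Scaling by library size moved the median of all genes from 0.01 to 0.36 for NASH against Control, from -0.03 to -0.23 for training and from 0.003 to 0.15 for NASH+Exercise against Control, and limma on TPM moved it to 0.45, -0.33 and 0.14. Log2 differences under these scalings, and TPM levels and sums compared between groups, are relative to those shifts.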
